A study of Mus musculus with 48 samples.

Results

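The middle part of the mouse VH region was examined: 760 kb of chromosome 12 (chr12:115040000-115800000, mm9) that starts 273.7 kb beyond the last D segment. Its members were chosen by position alone, as every junction of a full JH1-4 bait list whose prey lay between those coordinates on either strand. They numbered 127696 of the 605816 VH junctions and of the 10275486 junctions in 25 libraries. The stretch covers 31.3% of the 2.43 Mb VH region and holds 38 of its 116 annotated VH gene models (32.8%), with 15 models nearer D and 63 beyond. It was described as lying between the D-near Ighv2 and Ighv5 block and the Ighv1 block, and the annotation bears this out in part only: 5 Ighv2 and Ighv5 genes lie inside its D-near end and 4 Ighv1 genes inside its far end. The inner sides of both bounds held few junctions. The 20 kb just inside the D-near bound held 117 junctions and the 20 kb just outside it 2486, and at the far bound the counts were 174 and 4893.

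Junctions were mapped by LAM-HTGTS, in which a primer in a bait segment is extended by linear amplification and the DNA joined to the bait (the prey) is read across the joint. The series' design names RAG scanning and locus contraction as its subject. Bone marrow (BM) pro-B cells, purified on B220 beads and cultured with IL-7 and SCF, gave 3 libraries of C57BL/6 (WT BM) and 4 of C57BL/6 with an Igh inversion (INV BM). Both BM genotypes are listed as RAG1 deficient, with no restoring step in the label, although their libraries hold V(D)J junctions. The other 18 libraries came from v-Abl transformed pro-B lines that carry OsTIR1 and an Emu-Bcl2 transgene, lack RAG1, received RAG1/2 by retrovirus and were arrested with 3 uM STI-571, for 4 days in the untreated groups. A line without the degron, titled Primary in the labels and called parental here, gave 3 libraries. The Wapl-degron line gave 3 untreated libraries and 3 after 1 day of STI-571 followed by 3 days of 150 uM IAA with Dox and STI-571 (IAA/Dox). A Wapl-degron line with a single Igh allele gave 3 untreated and 3 IAA/Dox libraries, and 3 more IAA/Dox libraries carry INV in the title only, with no inversion in the genotype label (single-Igh INV). The extent of the inversion is not given in the sources used here. The labels do not say whether replicates were separate cultures or animals, so p-values measure only the spread between these libraries. Libraries held 61194 to 1016401 junctions, and the middle region 7 to 61064 of them. The lowest numbers, 7, 55 and 76, were those of the single-Igh INV libraries.

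During V(D)J recombination RAG cuts between a gene segment and its recombination signal, a conserved heptamer and nonamer held apart by a spacer, and a D segment is joined to JH before a VH gene is joined to the DJ. Cohesin is thought to extrude chromatin loops past the RAG-bound recombination centre, which brings distant VH genes to it in linear order, and Wapl releases cohesin from chromatin. The middle VH genes belong to many small families that lie interspersed, among them Ighv12-3 and Ighv11-2, known for their repeated use in B-1a cells that bind phosphatidylcholine.

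All VH genes of this stretch point the same way in mm9, so a junction to the coding end of a gene has a plus-strand prey in the files. Preys are mapped to mm9, so this holds whichever way the allele lies. The signals next to 10 of the sites described below, some among the most used and some among the most changed, are printed because they show what kind of end was joined. The capitals mark the heptamer and, at the end of all but the site at 115117306, the 9 bases at the place of a nonamer, and the first 12 bases of each are the end of the prey, except that the heptamer of the site at 115700500 starts 1 base inside it. The first 7 run on the minus strand of mm9 and belong to plus-strand preys.
Ighv3-6, chr12:115526324-115526374: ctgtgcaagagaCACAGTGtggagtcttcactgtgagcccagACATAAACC
Ighv10-1, chr12:115717177-115717227: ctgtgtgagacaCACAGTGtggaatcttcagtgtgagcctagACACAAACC
Ighv5-17, chr12:115097321-115097371: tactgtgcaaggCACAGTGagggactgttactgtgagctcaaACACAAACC
Ighv12-3, chr12:115604692-115604742: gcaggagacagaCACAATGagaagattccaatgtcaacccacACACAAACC
Ighv9-1, chr12:115332101-115332150: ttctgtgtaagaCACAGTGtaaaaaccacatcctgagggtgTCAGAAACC
Ighv2-9, chr12:115117268-115117318: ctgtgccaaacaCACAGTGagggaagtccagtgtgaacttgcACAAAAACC
Site at 115700500, chr12:115700462-115700511: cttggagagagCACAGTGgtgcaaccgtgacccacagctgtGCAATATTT
The next 3 run on the plus strand and belong to minus-strand preys. In the first of them the capitals mark the heptamer of Ighv2-9 read from its other side, which lies within the prey. In the other two the 9 bases match the nonamer at 5 positions only.
Site at 115117306, chr12:115117295-115117331: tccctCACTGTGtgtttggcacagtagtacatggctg
Site at 115731950, chr12:115731939-115731989: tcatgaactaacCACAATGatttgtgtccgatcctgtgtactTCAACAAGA
Site at 115783296, chr12:115783285-115783337: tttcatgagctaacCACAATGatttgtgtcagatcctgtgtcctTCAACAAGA

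Junction positions of 1 strand were joined into sites over gaps of up to 20 bp, which gave 224 sites in the middle region, 115 of them with at least 10 junctions (64 plus-strand and 51 minus-strand). Of the 38 gene models, 34 had a site within 20 bp of their 3′ end, and these held 87.4% of the middle junctions. Ighv7-2, Ighv13-1, Ighv3-5 and Ighv3-2 had none there. A plus-strand site at 115500863, with the exact heptamer, lies inside the Ighv3-5 model but away from its 3′ end, and was counted without a gene. Its log2 fold change with IAA/Dox was 5.89 in the Wapl-degron line, and whether it is the coding end of Ighv3-5 was not tested. RefSeq gives 4 models of the stretch as pseudogenes, among them Ighv7-1 and Ighv1-2, which were both joined. The mm9 annotation lists those as V genes and gives Ighv13-2, also joined, as a pseudogene. The exact heptamer CACAGTG lay within 15 bases beyond the junction at 26 of the 34 annotated plus-strand sites (76.5%), and its first 3 bases, CAC, at all 34. Of the 30 other plus-strand sites with at least 10 junctions, 8 had the exact heptamer. Of all positions of the stretch on both strands, 0.19158% have the heptamer within the same window and 18.468% have CAC.

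In WT BM the middle region was used heavily. The 3 libraries had 16.1%, 17.6% and 16.4% of their D plus VH junctions there (16.7% ± 0.772, SD, n = 3), and 33.5% ± 1.38 of their VH junctions. All 34 annotated sites had junctions. Ighv3-6 was the most used, with 1196, 940 and 800 junctions per 100000 D plus VH junctions, the scale of every level given below. Ighv12-3 followed with 652, 887 and 1230, then Ighv9-3 with 799, 897 and 699 and Ighv10-1 with 797, 913 and 645. The ranges of these 4 sites overlap, so their order is not separated by the spread between libraries. Averaged over the libraries, Ighv3-6 held 5.88% of the WT BM middle junctions, and the highest share of a site in 1 library was 7.49%, for Ighv12-3. Use was spread over the whole length and somewhat higher away from D: the 4 windows of 190 kb, from the D-near end outwards, held 20.03%, 24.4%, 27.1% and 28.5% of the middle junctions, with 11, 10, 9 and 8 annotated genes, and the first and the last window did not overlap between libraries.

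**Figure D1:**
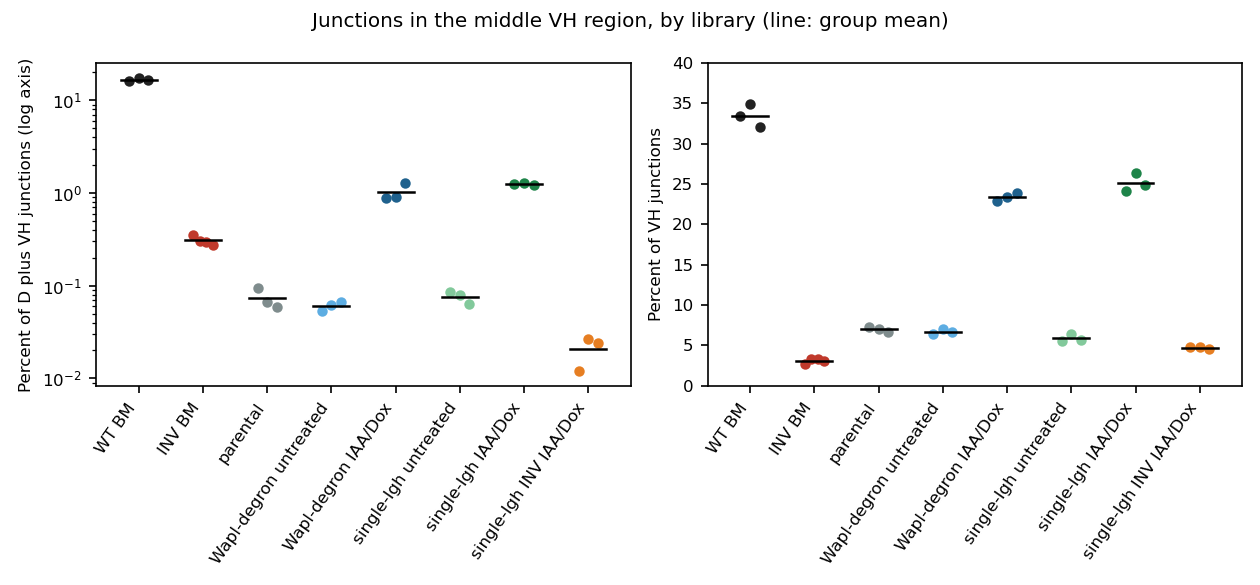
Middle junctions of each library (points) as a percent of D plus VH junctions (left, log axis) and of VH junctions (right, linear axis), with group means as lines. WT BM lies near 16.7% of D plus VH junctions, the IAA/Dox groups of the lines without the inversion near 1%, and the untreated lines and single-Igh INV below 0.1%.

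Carrying the inversion went with a near loss of middle VH joining in BM. The 4 INV BM libraries had 0.356%, 0.304%, 0.297% and 0.272% of D plus VH junctions in the middle region (0.307% ± 0.0353, n = 4), 54.4-fold less than WT BM, and no library of either group overlapped the other. The size of the gap depends on how junctions are counted. With distinct junctions (by position, bait end and length between bait and prey) counted once it was 17.5-fold, 1.07% against 18.7%, and as a share of all junctions it was 26.5-fold, without overlap in either count. Distinct counting can shrink D junctions more than VH junctions. In the parental line it moved the middle share from 0.0730% to 0.959% of D plus VH but only from 6.99% to 7.87% of VH junctions. Folds of D plus VH shares over distinct junctions, here and below, are not on the same footing as the others. The WT BM shares of all junctions were uneven, at 15.2%, 5.73% and 1.94%, so the 26.5-fold leans on the first library. A two-sided exact permutation test gave p = 0.0571, the smallest that 4 against 3 libraries allow, and 0.147 after Benjamini-Hochberg adjustment over the 25 tests of shares made here. The middle share of VH junctions was also lower, at 3.10% ± 0.286 in INV BM against 33.5% ± 1.38 (6.41% against 30.6% over distinct junctions). The size of that gap depends on Ighv5-2, a VH gene close to D known for its heavy use: without it in the denominator the shares were 18.8% ± 0.760 and 36.1% ± 1.17, still without overlap. Against the genes farther out alone, leaving the D-near genes aside, the middle held 21.3% ± 0.819 in INV BM and 43.0% ± 2.10 in WT BM. The gap was of the same size within each sequencing run that held both groups: 0.291% against 17.0% in a run with 3 and 2 libraries, and 0.356% against 16.1% in a run with 1 of each.

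Of 105 middle sites tested with limma voom, 61 were called lower and 2 higher in INV BM at an adjusted p under 0.05. Over all 340 VH sites tested the shares called were 49.7% lower and 5% higher. The median log2 fold change was -4.02 over the 105 middle sites and -3.15 over all 340 sites, with or without an annotated gene. All 33 annotated middle genes tested were lower, with a median of -6.81. Annotated genes outside the stretch, grouped by the spacer at which the nonamer matched better, had medians of -6.215 (22 bases, 44 genes), -5.473 (23 bases, 18 genes) and -4.873 (ties, 8 genes). Scaled to VH junctions in place of D plus VH, which sets the sites against VH use as a whole and moves the median over all 340 sites to -0.80, the calls became 15 higher and 45 lower. The shares called over all sites at that scaling are not given here, so these counts do not compare the middle with the rest. Ighv3-6 fell from 1196, 940 and 800 per 100000 to 4.98, 7.33, 2.61 and 4.66 (log2 fold change -7.81 ± 0.61, SE, limma adjusted p = 5.3e-09).

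The genes did not fall by equal factors, and this was the main pattern within the stretch. Ighv10-1 kept the highest level of any middle gene in INV BM, at 39.2, 38.2, 36.1 and 35.8 against 797, 913 and 645 in WT BM (-4.40 ± 0.28, limma adjusted p = 8.4e-10). Ighv2-9, of a family otherwise found nearer D, stood at 32.4, 25.5, 26.8 and 24.5 against 474, 652 and 506 (log2 fold change -4.21), the smallest fall of an annotated gene. The INV BM levels of these genes varied little between libraries. At the other end, Ighv9-1 had 214, 102 and 187 in WT BM and 0.142, 0.319, 0 and 0 in INV BM. That is 2 junctions against 1204, a 1611-fold lower level with a 95% counting interval of 445 to 13321. The interval takes each listed junction as independent, although the 1204 were 203 distinct ones. The limma log2 fold change was -9.69 ± 0.99.

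Ighv9-4 and Ighv9-2 fell nearly as far (-9.58 and -9.15), and the 4 Ighv9 genes, all called lower, had a median of -9.37. The family made up 9.37% ± 0.366 of the middle junctions in WT BM and 1.48% ± 0.547 in INV BM. The 2 Ighv10 genes went the other way within the stretch, from 8.07% ± 0.834 to 17.7% ± 1.55 of the middle junctions, and Ighv2 from 3.31% ± 0.416 to 8.88% ± 0.331. Neither pair of ranges overlapped. The Ighv2 share came from Ighv2-9 alone in INV BM, since Ighv2-7, the other Ighv2 gene, had 94 junctions in WT BM and none in INV BM. The 4 Ighv1 genes at the far end fell from 10.7% ± 1.01 to 4.14% ± 2.47. Members of 1 family share sequence, and reads of near-identical genes could have been moved or left out by the authors' mapping filter.

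A plus-strand site with no annotated gene, at 115700500, was also held up. It had 403, 456 and 665 in WT BM and 30.4, 26.5, 27.9 and 24.7 in INV BM, a level close to that of Ighv2-9. It had no junction in the 9 untreated line libraries and 0.527 to 3.99 per 100000 in the 6 IAA/Dox libraries without the inversion. Its printed sequence has the exact heptamer but matches the nonamer at 4 of 9 bases only.

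**Figure D2:**
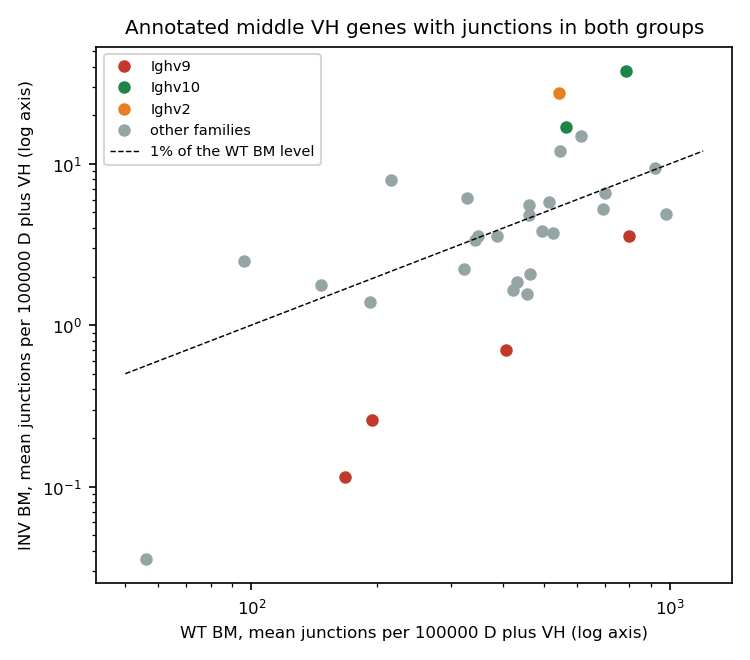
Each point is an annotated middle VH gene with junctions in both BM groups, at its mean level in WT BM (x, log axis) and INV BM (y, log axis), both per 100000 D plus VH junctions. The dashed line marks 1% of the WT BM level: Ighv10 and Ighv2-9 lie above it and the Ighv9 genes below it.

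By window, the fall was 41.6-fold nearest D, 89.5-fold and 84.7-fold in the middle windows and 37.2-fold in the window farthest from D. The far window then held 41.7% ± 3.86 of INV BM's middle junctions against 28.5% ± 1.83 in WT BM, where Ighv10-1, Ighv10-3 and the site at 115700500 stood at means of 37.4, 16.8 and 27.4 of 128 per 100000 in INV BM and 785, 565 and 508 of 4754 in WT BM. Across the 33 genes the log2 fold change had no clear steady trend along the stretch (Spearman -0.203, over genes, which share libraries and are not replicates). That value does not measure a pattern that turns, such as the smaller falls of the windows at both ends.

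In the untreated v-Abl lines the middle genes were almost unused. Their share of D plus VH junctions was 0.0939%, 0.0668% and 0.0582% in the parental libraries (0.0730% ± 0.0186). In the untreated Wapl-degron libraries it was 0.0529%, 0.0611% and 0.0669% (0.0603% ± 0.00701). The untreated single-Igh libraries had 0.0857%, 0.0792% and 0.0635% (0.0762% ± 0.0114). These 3 groups overlap one another. WT BM stood 229-fold above the parental line, with no overlap (two-sided exact permutation test p = 0.1, the smallest for 3 against 3 libraries, adjusted p = 0.147). Over distinct junctions that was 19.5-fold, 18.7% against 0.959%, and as a share of all junctions 107-fold. In that last count the WT BM libraries ran from 1.94% to 15.2%, so the fold leans on the highest of them. Limma called 61 of 78 middle sites higher in WT BM and 0 lower, close to the 78.1% of all 224 VH sites called higher (0% lower). The median log2 fold change was 5.94 over the middle sites and 6.06 over all sites. All 33 annotated middle genes tested were higher, with a median of 9.19. Annotated genes outside the stretch, grouped by the spacer at which the nonamer matched better, had medians of 9.32 (22 bases, 44 genes), 6.04 (23 bases, 18 genes) and 11.53 (ties, 8 genes). Scaled to VH junctions, 28 middle sites were called, counting both directions. Without the share called over all sites at that scaling, this does not set the middle apart. Tissue, transformation, culture and arrest all differ between these groups and cannot be told apart.

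The few middle junctions of the untreated lines lay toward D. The D-nearest window held 47.2% ± 3.91 of them in the parental line, 52.3% ± 4.61 for untreated Wapl-degron and 45.0% ± 1.496 for untreated single-Igh libraries, against 20.03% ± 1.46 in WT BM, and the window farthest from D held 10.9% ± 0.880, 10.7% ± 3.17 and 12.4% ± 1.16. Ighv5-17 had the highest mean of the middle genes in all 3 lines, with 17.7, 9.06 and 7.30 in the parental libraries, 8.75, 5.89 and 8.599 in Wapl-degron and 9.82, 8.88 and 7.08 in single-Igh libraries. The range of Ighv2-9 overlapped it in each line. WT BM had 473, 574 and 531 at the same gene. Of the 34 genes, 30, 29 and 31 had any junction in the parental, Wapl-degron and single-Igh untreated libraries.

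The degron alone made no detected difference. None of 27 middle sites, nor any of the 73 sites tested over the VH region (0% called), passed limma's adjusted p under 0.05 between untreated Wapl-degron and parental libraries, and none had an unadjusted p under 0.05. Limma trend also called none. The middle share of D plus VH junctions differed by -0.0127 percentage points (two-sided exact permutation test p = 0.5). Of the 4 most used genes, Ighv11-2 was the only one whose libraries did not overlap, at 1.75, 3.65 and 3.16 against 8.84, 5.09 and 3.73 in the parental line (log2 fold change -0.63 ± 0.53, limma adjusted p = 0.90). The second window had 8.50 ± 1.76 against 15.5 ± 5.53 per 100000, also without overlap.

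**Figure D3:**
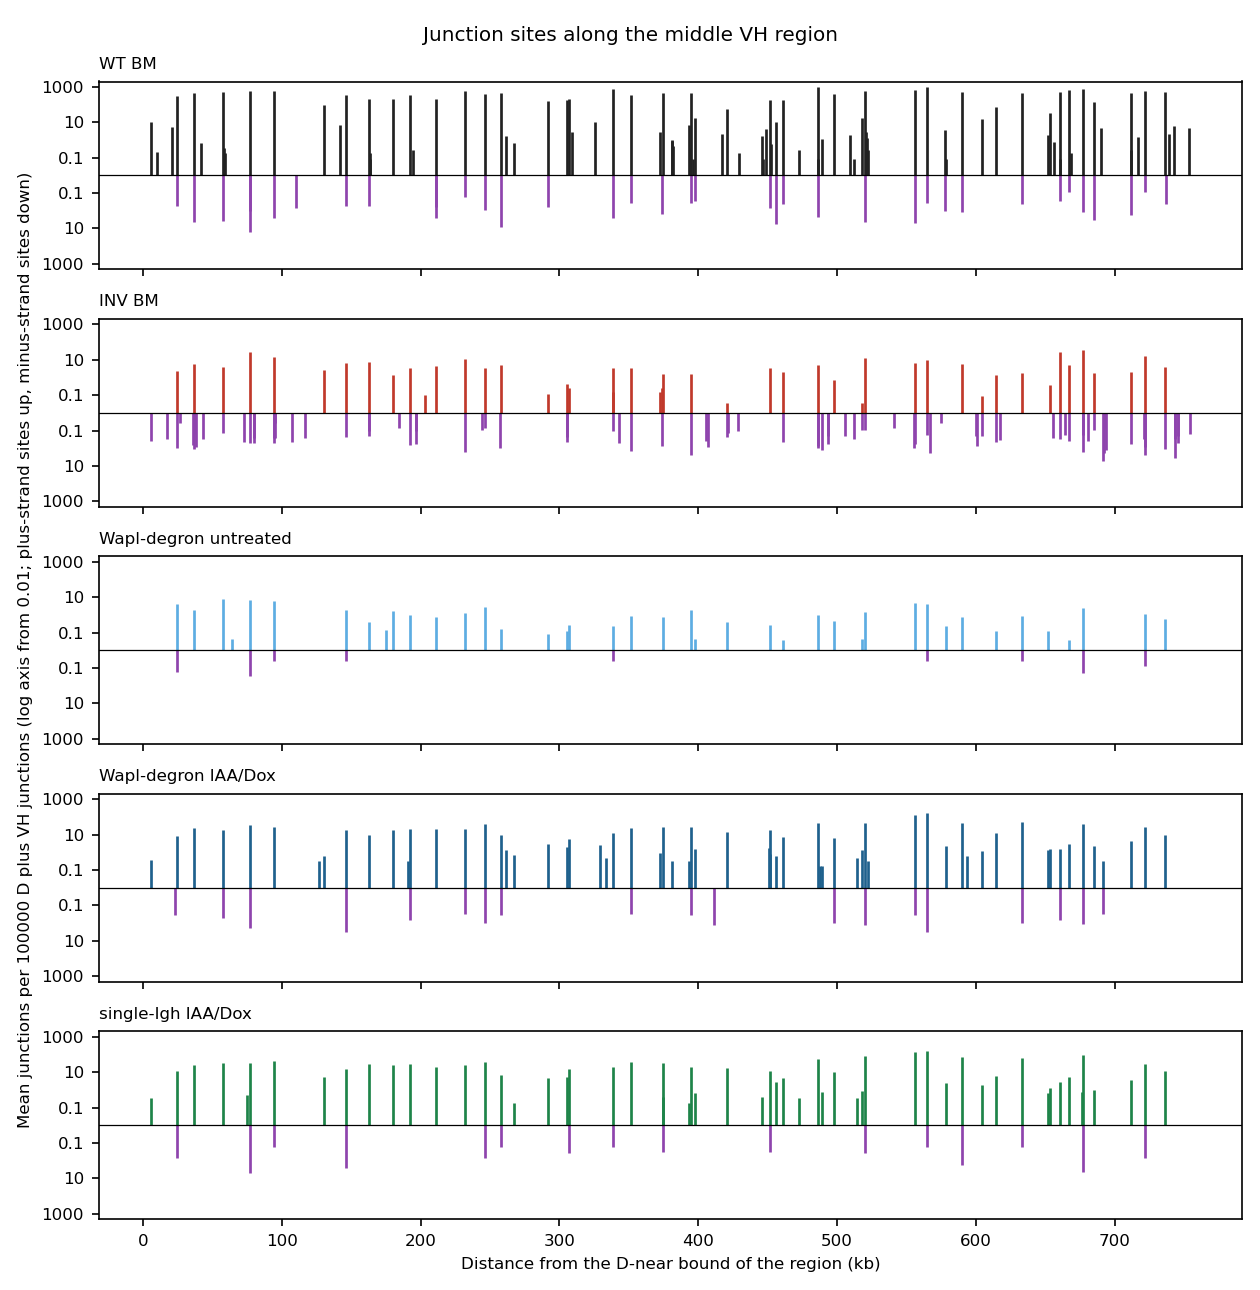
Mean junctions per 100000 D plus VH junctions (log axis from 0.01) at each site along the 760 kb, with plus-strand sites drawn up and minus-strand sites drawn down in purple, for 5 groups. WT BM uses plus-strand sites over the whole length, INV BM has many minus-strand sites, and untreated Wapl-degron plus-strand levels rise with IAA/Dox in both degron lines.

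With IAA/Dox, middle VH joining rose in both degron lines. IAA acts with OsTIR1 to degrade a degron-tagged protein, and Wapl itself was not measured here. In the Wapl-degron line the share of D plus VH junctions went from 0.0603% ± 0.00701 to 0.881%, 0.912% and 1.297% (1.03% ± 0.232), a 17.1-fold rise. In the single-Igh line it went from 0.0762% ± 0.0114 to 1.26%, 1.28% and 1.22% (1.25% ± 0.0290), a 16.5-fold rise. Over distinct junctions, with the limit given above for D junctions, the rises were 6.27-fold, from 1.09% to 6.86%, and 7.005-fold, from 1.16% to 8.12%. The groups did not overlap in either line under either count (two-sided exact permutation tests, p = 0.1 each, adjusted p = 0.147). The rise on the log2 scale was 4.09 and 4.04, and the difference of 0.05 between lines had p = 0.835 in an exact permutation of the line labels within treatments. Within sequencing runs the values were 0.912% against 0.0603% (run with 1 and 3 libraries) and 1.25% against 0.0792% (run with 2 and 1). Both groups lay below the 16.7% of WT BM, which was 16.2-fold and 13.3-fold higher, or 2.72-fold and 2.30-fold over distinct junctions.

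The middle region rose to 23.4% ± 0.540 of VH junctions from 6.66% ± 0.303 in the Wapl-degron line, and to 25.1% ± 1.11 from 5.89% ± 0.495 in the single-Igh line. Without Ighv5-2 in the denominator these rises were smaller, from 11.3% ± 0.499 to 24.1% ± 0.498 and from 10.5% ± 0.884 to 25.9% ± 1.10. The middle region gained less than the VH sites farther out. Of the junctions in the middle region and farther out, its share fell from 53.6% ± 6.68 to 25.5% ± 0.571, and from 51.9% ± 1.23 to 27.4% ± 1.304 (no overlap, adjusted p = 0.147 each by exact permutation). In WT BM the same share was 43.0% ± 2.10. 

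With limma, 41 of 42 middle sites tested of the Wapl-degron line were called higher, as were 43 of 43 with a single Igh allele, and none lower. Over the VH region 89.1% of 138 sites and 91% of 145 were called higher and 4.35% and 3.45% lower. A rise was thus the rule over the sites tested, but not for the genes nearest D. Annotated genes from Ighv5-2 to Ighv5-6 had log2 fold changes of -2.13 to -1.36 in the Wapl-degron line and -2.09 to -1.30 in the single-Igh line. Those from Ighv2-4 to Ighv2-6-8, next to the middle region, had -0.40 to 2.61 and -0.39 to 2.34. The median middle log2 fold change was 4.59 against 5.00 over all sites, and 4.12 against 4.93. Ighv12-3 had the highest mean of the middle genes in both treated lines. It went from 4.81, 3.06 and 3.92 to 152, 152 and 171 in the Wapl-degron line (5.40 ± 0.37, limma adjusted p = 7.9e-39) and from 4.53, 5.44 and 1.68 to 122.6, 185 and 134 in the single-Igh line (5.40 ± 0.44, limma adjusted p = 8.0e-08). Limma shares its estimate of spread over sites, and p-values this small say little about how far 1 gene varies between libraries.

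Ighv13-2 followed, at 114, 109 and 145 in the treated Wapl-degron libraries from 3.94, 4.71 and 4.55, and at 121, 142 and 140 in the single-Igh libraries from 4.15, 6.02 and 3.54. In the single-Igh line it overlapped Ighv12-3 and was the higher of the pair in the third library. Ighv6-3 rose most in the Wapl-degron line, from 0.875, 0 and 1.26 to 30.1, 45.9 and 57.4 (log2 fold change 6.78). In the single-Igh line Ighv7-4 rose most among annotated genes (6.63), from 0, 0 and 0.373 to 13.6, 15.9 and 19.9.

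Within the stretch, the rise was smallest in the window nearest D and larger in the 3 windows beyond. It was 5.24-fold in the D-nearest window of the Wapl-degron line, 23.4-fold in the second, 33.0-fold in the third and 32.1-fold in the fourth. In the single-Igh line it was 6.56-fold, 15.0-fold, 29.4-fold and 32.2-fold. The gene at the low end of the rises was Ighv5-15, near the D-near bound, with a log2 fold change of 1.12 ± 0.57 in the Wapl-degron line (limma adjusted p = 0.055), the only annotated gene there that missed the threshold. Ighv5-17, with the highest mean of the untreated lines, reached only 18.5, 15.3 and 20.1 from 8.75, 5.89 and 8.599 (1.27 ± 0.44, limma adjusted p = 0.0045). Ighv5-16, which lies between Ighv5-15 and Ighv5-17, rose more, with log2 fold changes of 3.56 in the Wapl-degron and 3.42 in the single-Igh line. As a description across genes, log2 fold change and position had Spearman 0.618 over 30 genes and 0.598 over 31.

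**Figure D4:**
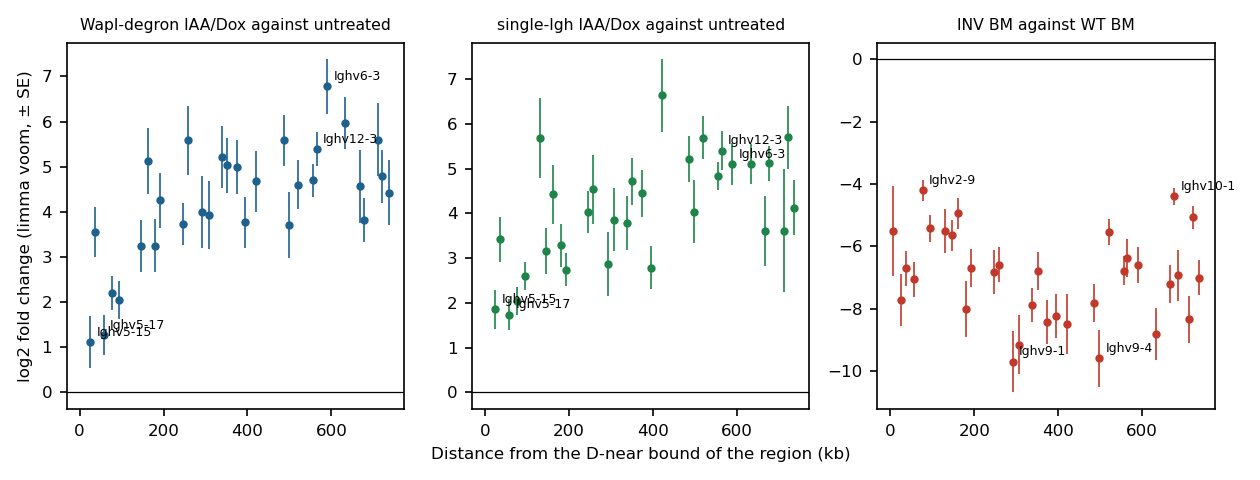
Log2 fold change (limma voom, ± SE) of each annotated middle gene against its distance from the D-near bound in kb, for IAA/Dox against untreated in the 2 degron lines and for INV BM against WT BM. Ighv5-15 and Ighv5-17, near the D-near bound, rose least with IAA/Dox in both lines, though Ighv5-16 between them rose more. The fall in INV BM has no clear steady trend along the stretch.

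Family shares within the middle region moved accordingly. Ighv5 went from 22.6% ± 4.02 to 4.97% ± 1.08 of middle junctions in the Wapl-degron line and from 19.0% ± 0.380 to 5.53% ± 1.43 in the single-Igh line. Ighv12 rose from 6.65% ± 2.15 to 15.7% ± 2.19 and from 4.93% ± 2.14 to 11.7% ± 2.48, and Ighv13 from 7.32% ± 0.463 to 12.03% ± 0.854 and from 6.00% ± 1.42 to 10.7% ± 0.949. None of these ranges overlapped. 

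The treated lines used the middle genes in a partly different order from WT BM. Across 34 genes the levels of the treated lines had Spearman 0.943 with each other and 0.629 and 0.623 with WT BM. The third window, which holds Ighv12-3 and Ighv13-2, took 44.6% ± 1.08 and 38.5% ± 3.24 of the middle junctions in the treated lines against 27.1% ± 2.17 in WT BM. The 4 Ighv1 genes stayed low, at 1.82% ± 0.128 and 1.68% ± 0.137 against 10.7% ± 1.01. Ighv1-5 had 559, 500 and 328 per 100000 in WT BM, 4.86, 3.16 and 4.78 in treated Wapl-degron libraries and 0 in all parental ones, at least 588-fold below WT BM when 3 counts per library are taken as the floor. Ighv1-2 had 565, 746 and 760 in WT BM and 2.92, 2.64 and 2.87 in the treated Wapl-degron libraries.

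In the treated single-Igh line, carrying the inversion went with a 60.2-fold lower middle share (28.2-fold over distinct junctions, 0.288% against 8.12%). The single-Igh INV libraries had 0.0120%, 0.0263% and 0.0242% of D plus VH junctions there (0.0208% ± 0.00776) against 1.26%, 1.28% and 1.22%, with no overlap (exact permutation p = 0.1, adjusted p = 0.147). In the run that held both groups, 2 libraries averaged 0.0191% and 1 had 1.26%. The 95% Wilson interval of the smallest library was 0.00579% to 0.0247%, which covers counting error only. The middle share of VH junctions was 4.72% ± 0.185 against 25.1% ± 1.11 (7.86% against 23.9% over distinct junctions), but without Ighv5-2 in the denominator it was 24.3% ± 4.19 against 25.9% ± 1.10, and the groups overlapped (exact permutation p = 0.6). Of the junctions in the middle region and farther out, its share was higher in single-Igh INV, at 36.7% ± 6.12 against 27.4% ± 1.304 (no overlap, exact permutation p = 0.1, adjusted p = 0.147). That difference depended on which junctions were counted. Over distinct junctions it stood, at 37.7% and 26.1% without overlap. Over sites with an annotated gene the shares were 26.3% and 25.5%, and with the bounds moved in by 20 kb 31.0% and 27.4%, and the groups overlapped in both.

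Limma called 42 of 45 middle sites lower and 2 higher, where 91.2% of the 148 VH sites were called lower and 3.38% higher. The median log2 fold change was -5.20 over the middle sites and -5.08 over all sites. Of 31 annotated genes tested, 30 were called lower, with a median of -5.64. In 23 of the 31, 1 of the groups had fewer than 3 junctions. Fold changes of such genes depend largely on the depth of the libraries, so these medians do not rank the middle genes against other sites. Scaled to VH junctions the median over all sites was -1.61, and 15 middle sites were called lower and 2 higher. As the shares called over all sites at that scaling are not given, these counts say nothing particular to the middle. Only 8 of the 34 annotated sites had any junction. Ighv10-1, at 91.9, 85.8 and 104 per 100000 without the inversion, had none (at least 37.5-fold lower), nor had Ighv3-8 (at least 32.3-fold), Ighv6-3 (at least 29.7-fold) and Ighv3-6 (at least 20.7-fold). Ighv7-1 was the most used, with 0, 5.74 and 5.42 against 37.5, 35.0 and 52.8. Ighv10-1, the top middle gene of INV BM, thus had no junction in the inverted line; these groups differ in cell type, and the difference was not tested.

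Strand set INV BM apart from WT BM. Of the 127696 middle junctions 125939 had plus-strand and 1757 minus-strand preys. The minus-strand share was 0.599%, 0.363% and 0.416% in WT BM and 17.7%, 14.4%, 18.7% and 18.7% in INV BM (17.4% ± 2.05, no overlap, exact permutation p = 0.0571, adjusted p = 0.147). It was 1.71%, 0.704% and 2.04% in treated single-Igh libraries and 14.3%, 32.7% and 35.5% in single-Igh INV, where the first value rests on 7 junctions and has a 95% Wilson interval of 2.57% to 51.3%. With the bounds moved in by 20 kb the mean of single-Igh INV fell from 27.5% to 14.2%, and over sites with an annotated gene to 12.5%, and it then overlapped treated single-Igh, while INV BM stood at 15.9% and 6.77% without overlap with WT BM. In the untreated lines and in treated Wapl-degron libraries it ran from 0% to 3.66%. These are shares of middle junctions, so they rise when the plus strand falls, and levels are given for each kind below.

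Minus-strand junctions were of 2 kinds. The first lay within 20 bp of an annotated VH gene end, as the site at 115117306 does at Ighv2-9, and 16 of 23 such sites had the heptamer inside the prey, so that the signal side of the gene was joined. Their summed level fell with the inversion, from 78.7, 44.0 and 59.97 per 100000 in WT BM to 11.9, 9.88, 16.01 and 8.71 in INV BM (5.23-fold), and from 21.6, 9.01 and 23.9 in treated single-Igh to 0, 3.83 and 3.82 in single-Igh INV, with no overlap in either pair. The site at 115117306 had 26.7, 15.1 and 5.00 per 100000 in WT BM and 0.853, 0, 1.12 and 0 in INV BM (log2 fold change -5.29 ± 1.10, limma adjusted p = 0.00040). Single libraries could dominate them: the minus-strand site at 115298055 had 24.2 per 100000 in the third WT BM library and 0 in the other two (limma adjusted p = 0.23).

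The second kind lay elsewhere, and its level was higher in INV BM, where the other classes of middle junction were lower. It stood at 51.2, 33.8, 39.5 and 42.1 per 100000 in INV BM against 17.9, 19.9 and 8.33 in WT BM, 2.70-fold higher with no overlap. In single-Igh INV it was 1.71, 4.79 and 4.78 against 0, 0 and 0.997 in treated single-Igh libraries, with no overlap. The site at 115783296 alone gave 1.71, 2.87 and 4.46 of this, and without it single-Igh INV had 0, 1.91 and 0.319, which overlaps the treated single-Igh libraries. INV BM without that site had 30.9 to 48.8. Treated Wapl-degron libraries had 1.94, 4.22 and 3.83 without an inversion, about the level of single-Igh INV. The counts were 780 junctions at 70 sites in INV BM, 111 at 15 sites in WT BM, 26 at 4 sites in single-Igh INV, 14 at 6 sites in treated Wapl-degron and at most 4 in each other group. They made up 13.6% ± 1.86 of the middle junctions in INV BM, 17.4% ± 2.81 in single-Igh INV and 0.0917% ± 0.0355 in WT BM. These levels were summed after the counts were seen and carry no test. All 4 sites of single-Igh INV, with all 26 of its junctions, were among the 70 of INV BM. Over all groups there were 82 sites, of which 11 overlap a VH gene model. The junctions were spread out: the 5 most used sites held 33.5% of the 780, and 6 sites appeared in all 4 INV BM libraries. Among the 28 such sites with at least 10 junctions, 27 (96.4%) had CAC within 15 bases beyond the junction and 6 the exact heptamer. Matches at some of the other heptamer bases were not counted.

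**Figure D5:**
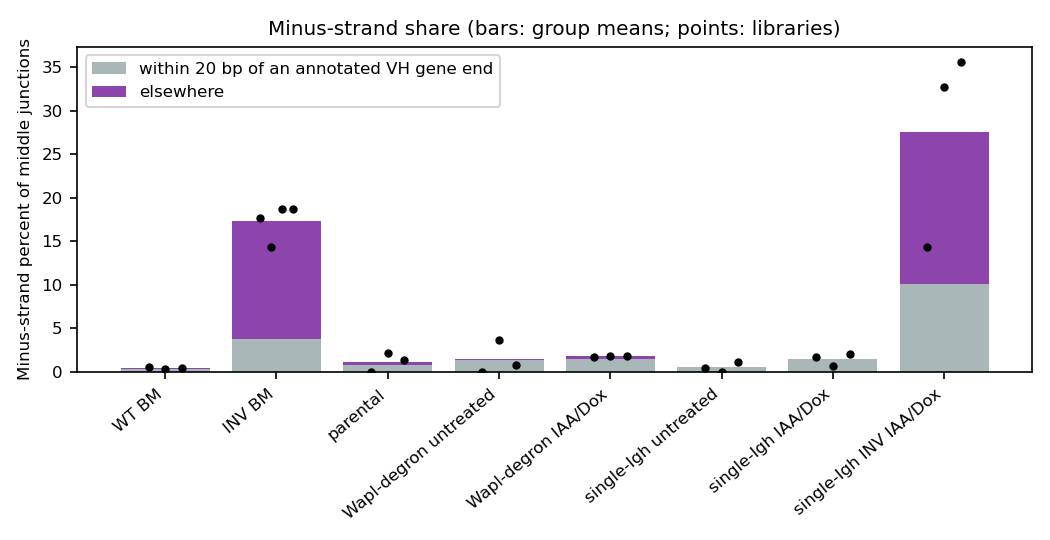
Minus-strand percent of middle junctions by group: bars are group means, split into sites within 20 bp of an annotated VH gene end (grey) and sites elsewhere (purple), and points are libraries. The purple part is 13.6% in INV BM and 17.4% in single-Igh INV and below 0.4% in the other groups.

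The site at 115731950 was the most used, at 6.97, 4.46, 4.84 and 5.06 per 100000 in INV BM and 0 in every WT BM library (at least 3.14-fold higher). Its 101 junctions were 32 distinct ones by position, bait end and length between bait and prey. The site at 115783296 had 2.42, 2.87, 4.47 and 4.86 in INV BM against 0 in WT BM (at least 2.15-fold, limma adjusted p = 0.0078). It was also called in the line, at 1.71, 2.87 and 4.46 in single-Igh INV against 0 in single-Igh IAA/Dox (at least 1.13-fold, limma adjusted p = 0.0025), where 21 junctions were 4 distinct ones. Both sites read CACAATG next to the prey, and the 51 bases around them are identical at 48 positions although they lie 51.35 kb apart. Reads of such near-identical copies could be split between them or left out by the mapping filter, so their levels are uncertain. The second site called higher in single-Igh INV, at 115232682, lies at the end of Ighv14-2 and so is of the first kind, whose summed level was lower with the inversion. It had 0, 1.91 and 2.55 per 100000 against 0, and rested on 12 junctions, of which 2 were distinct. It too passed the minimum through the inverted group alone.

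The joints themselves differed between BM and the lines. The median length of sequence between bait and prey was 17 to 18 bases for plus-strand middle junctions in WT BM libraries and 17 to 19 in INV BM. It was 14 to 16 in parental, 15 in untreated Wapl-degron, 12 in treated Wapl-degron and 11 to 12 in treated single-Igh libraries. The rest of the VH region had medians of 17 to 18 in WT BM and 11 to 12 in treated Wapl-degron libraries, close to those of the middle region. In the untreated lines the middle medians were longer than in the rest, at 14 to 16 against 13 to 14 in parental, 15 against 13 to 14 in Wapl-degron and 14 against 12 in single-Igh libraries. That difference was not tested. Minus-strand middle junctions of the treated lines without the inversion were short: 52% to 81.3% of them in Wapl-degron and 70.6% to 89.5% in single-Igh libraries had at most 2 bases, against 4.16% to 6.16% and 4.59% to 5.41% on the plus strand. The 1 untreated Wapl-degron library that could be summarised had 84.2%, so the trait was not seen in treated libraries alone. In the 2 single-Igh INV libraries that could be summarised, the minus-strand median was 11 bases and 18.5% to 27.8% had at most 2. These values rest on few junctions, with repeats of a joint counted each time. The 2 single-Igh INV libraries had 18 and 27, the treated Wapl-degron libraries 16 to 32 and the treated single-Igh libraries 17 to 25. In BM, minus-strand medians were 16 to 22 bases.

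Ighj2 was the bait end of 42.8% to 50.3% of plus-strand middle junctions in WT BM and 43.9% to 47.4% in INV BM. Some line libraries were dominated by 1 JH segment, such as 94.6% Ighj4 in a parental library, 100% Ighj2 in an untreated single-Igh library and 82.1% Ighj1 in a treated one. How many independent joining events such libraries hold was not tested.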

How the data were processed

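LAM-HTGTS libraries were deposited as lists with 1 junction per line, giving the prey's chromosome, position and strand, the bait end and the name of the read; this is per the file headers. Reads were aligned with Bowtie2 to mm9, per the submitters' processing notes, and the headers name filters for mapping quality, repeats and duplicates without thresholds. The deposited values are positions with no normalization, and every number used here came from counting lines in the full JH-bait lists. In all, 1 malformed line was skipped. Up to 0.192% of lines repeated a read name, except 28.4% in Wapl-degron IAA/Dox replicate 2. The libraries carry no molecular identifiers in these lists.

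VH genes were taken from the mm9 (NCBIM37) annotation, 28 of the middle models with current symbols through RefSeq synonyms, and sequences were read from the NCBIM37 genome. Motifs were searched on both strands: the heptamer CACAGTG or its first 3 bases within 15 bases beyond the most frequent junction position, and the nonamer ACAAAAACC at a spacer of 22 or 23 bases. A site entered a comparison if its 2 groups held at least 10 junctions there. All such sites of the VH region went into 1 fit of limma 3.58.1 in R 4.3.3 (lmFit and eBayes after voom), with D plus VH junctions as the library size and Benjamini-Hochberg adjusted p under 0.05. For shares, two-sided exact permutation tests were run in Python 3.11.15 with pandas 2.3.3, numpy 2.4.6 and scipy 1.17.1, and figures were drawn with matplotlib 3.10.9. A fold against a group without junctions used 3 counts per library, and intervals, from Wilson's or exact methods, cover counting error only.

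In simulated data 11 to 51 sites were raised by the same large factor. Limma recovered 98.0% of them for INV BM against WT BM, 90.5% for Wapl-degron IAA/Dox against untreated and 100% for the other 4 comparisons. It also called 0% to 4.92% of the unchanged sites, the most in untreated Wapl-degron against parental. Small changes, and changes in most sites, were not simulated, so recovery of those is not known. Between replicates of a group, 27 pairs shared no read name. In 2 of the pairs counts over regions and sites agreed within sampling noise, but JH use differed in each (largest p 2.34e-55), and all were kept. Same-numbered libraries were not treated as paired: the correlations of their deviations ran from -0.079 to 0.277 over 18 pairs, and in no comparison were all 3 above 0.1.

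Named sites were, in each comparison, the 4 plus-strand and 2 minus-strand sites with the highest mean in either group and the 4 called sites with the largest change whose libraries do not overlap. Other sites and genes named in the text were chosen after their values were seen. The members and lists were chosen with earlier results of these data known. Alternatives covered how junctions were counted, the region bounds, denominators, library size, minimum junctions, gap length, limma trend, sequencing run, a replicate block and leaving out each library.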

Additional observations from a re-analysis of the deposited data

Results flagged for a closer look

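Besides the full lists, 14 off-target lists of single JH-bait libraries were deposited, which the comparisons above do not use. In the middle region the 4 INV BM off-target lists held 433 lines, of which 424 had minus-strand preys (97.2% to 100% by list). The 4 WT BM off-target lists, the controls for these, held 986 lines with 76 on the minus strand (1.72% to 14.6% by list). Untreated Wapl-degron lists held 13 lines with 1 on the minus strand, and IAA/Dox lists 75 with 9. How these lists were selected from the full ones is not given in the sources used here, and what decides the strand was not tested.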

How the results depend on the processing

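Over the alternatives tried, 298 share differences kept their direction and 12 reversed, all in the 6 differences given next. No share difference could pass 0.05 by its adjusted p here, so a kept direction is all that these show. Of the counts of called middle sites 81 stayed within 1.5 times and 8 moved. Of the log2 fold changes of named sites 381 kept direction and call, 12 lost the call and 5 reversed. Untreated Wapl-degron against parental turned from below to above 0 with distinct junctions counted once, to 0.134 percentage points of D plus VH and 0.168 of VH junctions. Leaving out 1 library at a time gave -5.69 to 0.98 points for its share of the outward junctions and -0.800 to 1.03 for its minus-strand share. For the minus-strand share of Wapl-degron IAA/Dox against untreated that range was -0.388 to 1.44. The difference between lines in the log2 effect was -0.0501 with all junctions as denominator, -0.160 with distinct junctions, and -0.148 to 0.167 when leaving out a library. The cause of these turns was not tested.

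Requiring at least 1 or at least 100 junctions changed how many sites were tested, and with it the calls: 83 or 19 for Wapl-degron and 70 or 21 for single-Igh IAA/Dox, and 16 at 100 junctions for single-Igh INV. With VH junctions as library size, single-Igh INV had 17 calls and WT BM against parental 28, and the medians over all sites moved from -5.08 to -1.61 and from 6.06 to 0.43. The higher share of the calls in single-Igh INV was then 2 of 17. Distinct junctions gave 40 calls for WT BM against parental. Reversed named sites were 115717212 on the minus strand in single-Igh INV (0.58) and 115298055 on the minus strand in WT BM against parental (-3.31), both with VH library size, and, when 1 library at a time was left out of untreated Wapl-degron against parental, Ighv2-9 (-0.10 to 0.63, negative without parental replicate 3) and Ighv7-1 (-0.42 to 0.36, negative without parental replicate 3 and, at -0.09, without Wapl-degron untreated replicate 2). Leaving out 1 library gave 51 to 64 calls for INV BM, 34 to 41 and 37 to 40 for the degron lines, 36 to 41 for single-Igh INV and 45 to 69 for WT BM against parental.

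With a replicate block the calls were 64, 41, 43, 45, 0 and 77 in the order INV BM, Wapl-degron, single-Igh, single-Igh INV, untreated against parental and WT BM against parental, where 63, 41, 43, 44, 0 and 61 were called without it. Of 18 same-numbered pairs 9 correlated best with their own number, among them all 3 of untreated Wapl-degron against parental and all 3 of single-Igh INV, a hint from the data and not from the design. Few middle junctions, 7, 55 and 76, lie behind the single-Igh INV values.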

Other observations

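The middle genes were also grouped by the spacer at which the nonamer matched better, a grouping made after the values were seen and given with no test. A spacer of 22 bases fitted better at 12 of the 34 annotated sites, all in families Ighv1, Ighv9 and Ighv14, and one of 23 bases at the other 22. The 12 sites held 32.1% ± 0.426 of the annotated middle junctions in WT BM and 14.7% ± 3.201 in INV BM. In the lines they held 6.73% ± 2.71 in parental, 6.20% ± 3.52 in untreated and 11.6% ± 1.11 in treated Wapl-degron, and 15.1% ± 2.41 in untreated and 12.6% ± 0.681 in treated single-Igh libraries. Single-Igh INV, with few junctions, had 4.28% ± 5.74 (0% to 10.8% by library). No line library reached the lowest WT BM value of 31.6%. The median log2 fold change of WT BM against parental was 10.18 over the 12 sites and 7.75 over 21 tested sites with the longer spacer, and for INV BM against WT BM the medians were -7.54 and -6.70. In both, the change was larger at the shorter spacer. Wapl-degron IAA/Dox shared this order by a small margin, and the 2 single-Igh comparisons did not. In the same order of spacers, IAA/Dox gave 4.50 and 4.215 in Wapl-degron and 3.86 and 4.57 in single-Igh libraries. Single-Igh INV gave -4.93 and -6.15, and untreated Wapl-degron against parental -0.125 and 0.051. Spacer, family and position go together in this stretch, and their parts in these values cannot be told apart.

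The middle region had no prey in the 12 libraries with an Igk bait, among 568001 lines.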
